A study of Mus musculus with 11 samples.

Results

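The membrane-bound mucins are the transmembrane mucin genes Muc1, Muc3, Muc4, Muc13 and Muc20, which were taken by name and matched through the gene identifiers of the count tables. All 5 were found among 37310 gene identifiers and all 5 passed the filter on low counts. They were measured by bulk RNA sequencing in 11 libraries of organoids, which are self-organising epithelial cultures, grown from small intestine epithelium of mice. Every library carried the genotype Lgr5-EGFP-IRES-creERT2, a knock-in reporter of intestinal stem cells, and no library without it was included. The late group (n = 6) held passages 11, 12 and 13 of mouse_285 and of mouse_283. The early group (n = 5) held passages 2 and 4 of mouse_285 and passages 2, 3 and 4 of mouse_283. The protocol names mice of 4 and 24 months, but no label ties an age to an animal, so ages were not compared. The 11 libraries came from only 2 animals. The p-values therefore measure the spread between these libraries, not between animals, and no label gives a preparation or sequencing batch, so batch and stage cannot be told apart.

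Membrane-bound mucins are anchored in the apical membrane of epithelial cells and carry long extracellular domains rich in serine and threonine, to which dense O-linked glycans are attached. On intestinal enterocytes they form the glycocalyx, a layer over the microvilli below the secreted mucus of goblet cells. Several have EGF-like domains or cytoplasmic tails that take part in signalling, and their extracellular parts can be shed.

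Gene reads per library ran from 15114132 to 28949911. Levels are CPM, read counts scaled to library size after TMM correction for composition. Fold changes are on the log2 scale with standard errors (SE), and adjusted p-values are Benjamini-Hochberg values of edgeR's quasi-likelihood test over 14172 genes, with a threshold of 0.05. Passages 3 and 4 of mouse_283 stood apart, with expression that rose with the GC content of a gene by 0.974 and 0.778 log2 units per 10 points, against slopes from -0.407 to 0.199 in the other 9 libraries. Passage 2 of mouse_283 had the lowest of these slopes. In that library 11.7% of reads fell in no annotated gene, against 3.77% to 6.64% in the other libraries. Epithelial markers were present in all libraries. Epcam had at least 613 CPM and Vil1 at least 510 CPM in every library, and Ptprc, the pan-leukocyte marker, reached at most 0.0326 CPM.

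The promoters of Muc1, Muc3 and Muc13 are shown because Muc1 exceeded 3 reads in only 3 libraries while Muc3 and Muc13 were the most abundant members per length. Each sequence is the 250 bases upstream of the RefSeq start on build GRCm38.p6, a later build than the mm9 used for the counts, written 5′ to 3′ on the gene's strand. The Muc1 window lies at chr3:89228806-89229055 on the plus strand, that of Muc3 at chr5:137166047-137166296 on the minus strand and that of Muc13 at chr16:33793787-33794036 on the plus strand, where it belongs to the first of the 2 RefSeq starts of this gene. The windows of Muc1 and Muc13 lie directly before their GENCODE M21 gene models, whereas that of Muc3 lies upstream of its M21 model and does not adjoin it.
Muc1: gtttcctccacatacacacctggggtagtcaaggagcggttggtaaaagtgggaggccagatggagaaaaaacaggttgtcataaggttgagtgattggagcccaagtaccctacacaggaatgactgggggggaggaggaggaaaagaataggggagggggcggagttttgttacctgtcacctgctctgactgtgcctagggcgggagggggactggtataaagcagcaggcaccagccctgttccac
Muc3: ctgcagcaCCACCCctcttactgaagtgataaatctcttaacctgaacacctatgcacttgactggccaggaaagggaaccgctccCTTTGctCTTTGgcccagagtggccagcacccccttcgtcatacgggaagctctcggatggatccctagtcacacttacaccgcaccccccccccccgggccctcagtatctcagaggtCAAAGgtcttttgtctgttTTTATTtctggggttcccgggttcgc
Muc13: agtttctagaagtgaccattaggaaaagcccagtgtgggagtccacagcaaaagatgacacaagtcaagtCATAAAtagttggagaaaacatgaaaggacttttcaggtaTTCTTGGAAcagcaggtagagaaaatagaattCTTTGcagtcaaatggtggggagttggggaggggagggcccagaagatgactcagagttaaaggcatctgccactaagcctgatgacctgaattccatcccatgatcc
Capitals mark matches on either strand to the STAT motif TTCNNNGAA, the HNF4 motif CAAAG, the CDX motifs TTTATG and TTTATT, and the KLF motif CCACCC. No match overlapped another. The Muc1 window held 0 matches. The Muc3 window held 5, namely 3 HNF4 motifs, 1 CDX and 1 KLF motif, and the Muc13 window held 3, namely 1 STAT, 1 HNF4 and 1 CDX motif. Among 32851 promoters of the same length, 7.02% held the STAT motif, 48.6% the HNF4 motif, 10.8% TTTATG, 18.1% TTTATT and 28.1% the KLF motif. These matches describe letters and do not show binding.

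Muc1, a widely expressed epithelial mucin whose cytoplasmic tail binds signalling proteins, was lower in late than in early passages, and its reads were nearly all from the early libraries of 1 animal. Late libraries of mouse_285 had 2, 1 and 0 Muc1 reads (0.0838, 0.0624 and 0 CPM at passages 11, 12 and 13), and late libraries of mouse_283 had 1, 3 and 3 reads (0.0468, 0.0979 and 0.155 CPM). Early libraries of mouse_285 had 1 and 0 reads (0.0566 and 0 CPM at passages 2 and 4), and those of mouse_283 had 168, 81 and 146 reads (10.2, 4.37 and 5.27 CPM at passages 2, 3 and 4). The 3 early libraries of mouse_283 were far above the other 8, so late and early libraries did not overlap in mouse_283 and did in mouse_285. A count of 0 allows up to 3 reads, which was 0.0979 to 0.187 CPM across libraries, and all 8 other libraries were at or below 3 reads.

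Late libraries averaged 0.0744 ± 0.0522 CPM (SD, n = 6) and early libraries 3.99 ± 4.25 CPM (SD, n = 5). With the animal in the model Muc1 fell by 4.94 on the log2 scale (SE 0.93, 95% interval -6.95 to -2.93, adjusted p = 0.0142). In that comparison 432 genes passed the threshold, 3.05% of those tested, of which 100 were higher (0.706%) and 332 lower (2.34%) in late libraries. After a correction for GC content and transcript length 421 were higher and 567 lower. Muc1 was the only member among them, 1 of 5, with either scaling. Within mouse_283 Muc1 fell by 5.98 (SE 0.66, adjusted p = 0.00216), in a comparison where 201 genes (1.42%) were called, 154 of them lower (1.09%). From the reads alone, 7 in late and 395 in early libraries of mouse_283, the ratio of late over early was 0.0156, with an exact 95% interval from 0.00622 to 0.0324 that covers counting error only. Fitted fold changes of a gene with so few late reads depend on the prior count.

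In mouse_285 both stages lay at or under the limit of 3 reads and no fold change is given. The interaction of stage and animal had an adjusted p of 0.99 for Muc1 in edgeR's quasi-likelihood test (0.00136 before adjustment), so a difference between the animals in the stage effect did not pass. As reported, the interaction test called 0 genes, with 302 at an unadjusted p under 0.05. The Muc1 interaction passed in edgeR with no low-count filter (adjusted p = 0.0162), where 65 genes were called. It also passed without passage 2 of mouse_283 (adjusted p = 0.016), where 2314 genes were called. DESeq2 called 16 genes, and Muc1 was not among them (adjusted p = 0.114). Between the animals, with stage in the model, Muc1 was lower in mouse_285 with a log2 difference of -5.14 (SE 1.11, adjusted p = 0.166 in edgeR's quasi-likelihood test). This difference passed with DESeq2 (-4.54, adjusted p = 2.04e-05), with no low-count filter (-5.15, adjusted p = 1.23e-09), and with the second strand column (-6.20, adjusted p = 0.0152). Leaving out passages 3 and 4 of mouse_283 also gave a call (-5.55, adjusted p = 0.032), with passage 2 of that animal then the only library above 3 reads. Among early libraries alone, a contrast added after the Muc1 values were seen, 1 read in mouse_285 against 395 in mouse_283 gave a ratio of 0.00426 (exact interval 0.000108 to 0.0239), and the fitted difference of -7.65 (SE 0.94) had an adjusted p of 0.0424. That contrast called 2 genes (0.0141%), and the Muc1 call was lost in 13 alternatives, 10 of them on leaving out 1 library.

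The late against early call for Muc1 was kept in 18 of 21 alternatives. It was lost without passage 11, 12 or 13 of mouse_283, with adjusted p of 0.0768, 0.0807 and 0.0747, and it held without passages 3 and 4 of that animal (-5.33, adjusted p = 0.00507) and after the correction for GC content and length (-4.85, adjusted p = 0.0074). Passage 2 of mouse_283, which had the highest Muc1 level, had a GC slope of -0.407, opposite in sign to those of passages 3 and 4. Without passages 3 and 4, passage 2 was the only library left with more than 3 Muc1 reads (168). That call therefore rested on 1 library. Passage 2 also had the highest percentage of reads in no annotated gene, 11.7%. The part of these library differences in the Muc1 result was not tested. In bulk RNA a lower share of cells of a type and less RNA per cell cannot be told apart.

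**Figure D1:**
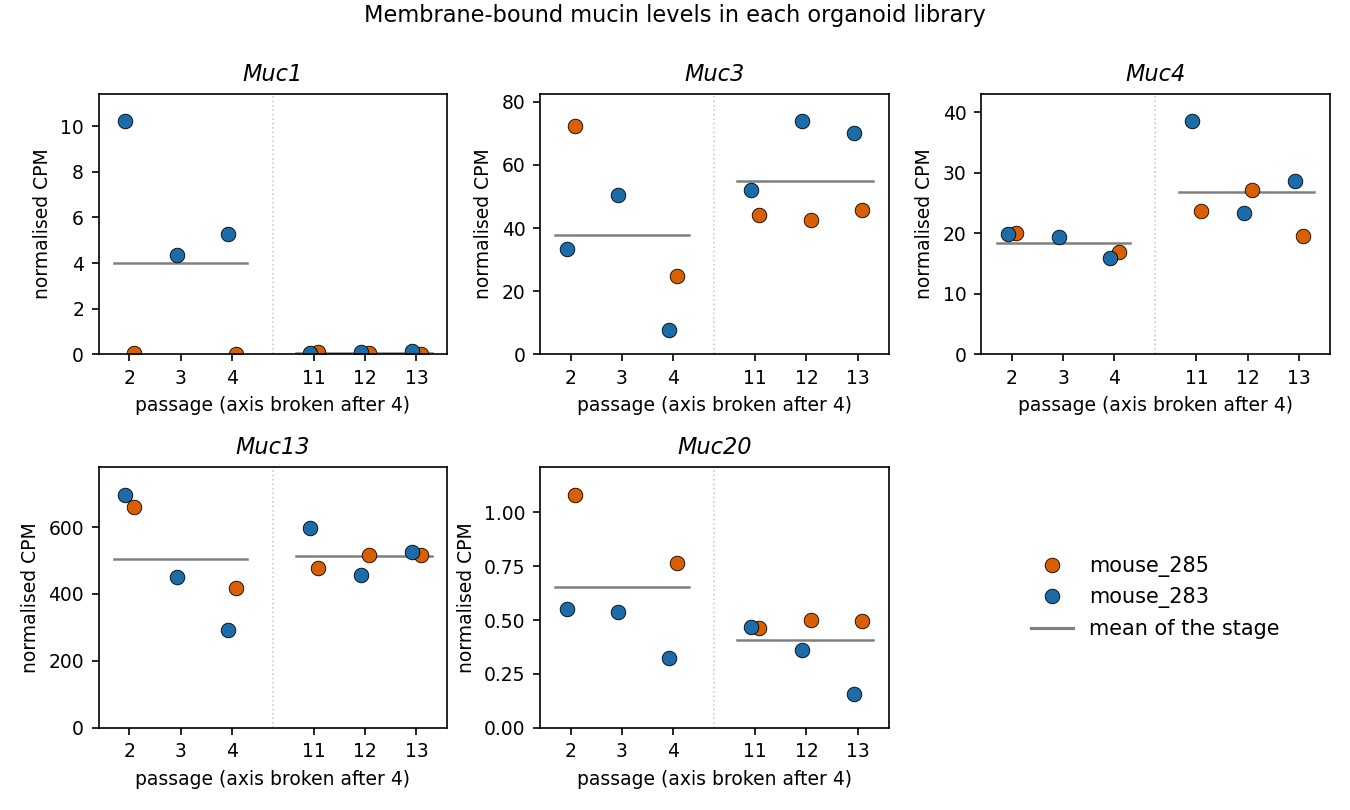
Normalised CPM of each membrane-bound mucin (vertical axes from 0, scaled per gene) against passage number (axis broken between 4 and 11). Each point is 1 library, coloured by animal, and grey lines are stage means. Muc1 stands at 4.37 to 10.2 CPM in the 3 early libraries of mouse_283 and at or below 0.155 CPM elsewhere.

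Muc13, a mucin of enterocytes and goblet cells with EGF-like domains and a short mucin domain, was the most abundant member and did not pass the test between stages. Late libraries had 479, 516 and 518 CPM in mouse_285 and 596, 456 and 525 CPM in mouse_283 (passages 11, 12 and 13). Early libraries had 660 and 417 CPM in mouse_285 (passages 2 and 4) and 696, 452 and 291 CPM in mouse_283 (passages 2, 3 and 4). The early libraries spanned the whole late range, with the highest values at passage 2 and the lowest at passage 4 in both animals. Means were 515 ± 48.0 CPM late (SD, n = 6) and 503 ± 171 CPM early (SD, n = 5), and the log2 difference was 0.03 (SE 0.22, 95% interval -0.44 to 0.50, adjusted p = 0.935). Without passages 3 and 4 of mouse_283 it was -0.21 (adjusted p = 0.491). Muc13 overlaps an antisense gene, Gm15657, in the GENCODE M21 annotation, and 45 to 556 reads per library were left out as ambiguous between them, against at least 8057 reads assigned to Muc13.

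Muc3, a large mucin of the enterocyte brush border, was second in level. Late libraries had 44.3, 42.7 and 45.7 CPM in mouse_285 and 52.2, 73.8 and 70.0 CPM in mouse_283 (passages 11, 12 and 13). Early libraries had 72.5 and 24.7 CPM in mouse_285 (passages 2 and 4) and 33.3, 50.4 and 7.80 CPM in mouse_283 (passages 2, 3 and 4). The groups overlapped, and the lowest value of each animal was its passage 4. Means were 54.8 ± 13.7 CPM late (SD, n = 6) and 37.7 ± 24.8 CPM early (SD, n = 5), a log2 difference of 0.54 (SE 0.42, 95% interval -0.38 to 1.46, adjusted p = 0.415). It was 0.26 without passages 3 and 4 of mouse_283. The difference was -0.13 (SE 0.60) within mouse_285 and 1.10 (SE 0.54, adjusted p = 0.281) within mouse_283. None of 1804 stretches of 50 bases in the Muc3 transcript (GENCODE M21) occurred in the related gene Muc3a.

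Across the 11 libraries the log2 levels of Muc3 and Muc13 had a Pearson correlation of 0.70, and of 0.77 after the correction for GC content and length. Muc1 had correlations from -0.48 to -0.13 with the other 4 members. These correlations are descriptions over libraries that share animals and depth. A slope on passage number, shared by both stages, was -0.25 log2 units per passage for Muc13 (SE 0.11, unadjusted p = 0.0453, adjusted p = 0.596) and -0.33 for Muc3 (SE 0.25, adjusted p = 0.614). The edgeR test of this slope called 0 genes, with 911 at an unadjusted p under 0.05, and DESeq2 and limma-voom also called 0.

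Muc4, a very large mucin with EGF-like domains that is a known partner of the receptor ErbB2, was higher in late libraries on average but did not pass the adjusted threshold. Late libraries had 23.7, 27.1 and 19.6 CPM in mouse_285 and 38.5, 23.3 and 28.7 CPM in mouse_283 (passages 11, 12 and 13). Early libraries had 20 and 17 CPM in mouse_285 (passages 2 and 4) and 19.9, 19.4 and 15.9 CPM in mouse_283 (passages 2, 3 and 4). In 5 of 6 late libraries the level was above every early library, and passage 13 of mouse_285 was inside the early range. Means were 26.8 ± 6.54 CPM late (SD, n = 6) and 18.4 ± 1.89 CPM early (SD, n = 5), a log2 difference of 0.55 (SE 0.18, 95% interval 0.15 to 0.95, unadjusted p = 0.0112, adjusted p = 0.122). It passed with DESeq2 (adjusted p = 0.0453), where 1343 genes were called, against 432 as reported. It also passed in edgeR without passage 2 of mouse_283 (adjusted p = 0.0417), where 4872 genes were called. It was 0.39 after the correction for GC content and length (adjusted p = 0.205). The difference was 0.34 (SE 0.28) within mouse_285 and 0.71 (SE 0.25, adjusted p = 0.201) within mouse_283.

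Muc20, a mucin linked in human cells to signalling by the MET receptor, had 3 to 19 assigned reads per library. Late libraries had 0.461, 0.499 and 0.496 CPM in mouse_285 and 0.468, 0.359 and 0.155 CPM in mouse_283 (passages 11, 12 and 13). Early libraries had 1.08 and 0.766 CPM in mouse_285 (passages 2 and 4) and 0.549, 0.539 and 0.325 CPM in mouse_283 (passages 2, 3 and 4). The stages overlapped, with 4 of 5 early libraries above every late one and passage 4 of mouse_283 inside the late range. Means were 0.406 ± 0.133 CPM late (SD, n = 6) and 0.651 ± 0.284 CPM early (SD, n = 5), a log2 difference of -0.69 (SE 0.36, 95% interval -1.47 to 0.10, adjusted p = 0.254).

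Muc4 and Muc20 lie on opposite strands and share 627 exon bases of 11757 and 4027 in the GENCODE M21 annotation, and the reads that fell in both genes were left out of the unstranded counts. Their number follows from the strand columns, as first strand plus second strand minus unstranded reads, and was the same from either gene's side in all 11 libraries. They came to 5.52 to 13.3 CPM in late libraries and 2.87 to 13.5 CPM in early libraries, and were more than the Muc20 reads in every library. They made up 23.7 ± 2.68% of the reads of both genes in late libraries (SD, n = 6) and 21.7 ± 11.1% in early libraries (SD, n = 5). The highest share was 40.3% (exact 95% interval 36.4% to 44.3%) at passage 3 of mouse_283, and the lowest 12.3% (9.16% to 16.0%) at passage 2 of the same animal. In mouse_285 the share was 22.6%, 25.8% and 21.5% late (passages 11, 12 and 13) and 16.0% and 17.1% early (passages 2 and 4), without overlap. In mouse_283 it was 25.5%, 26.7% and 20.1% late and 12.3%, 40.3% and 22.7% early (passages 2, 3 and 4), where the groups overlapped and the late mean was the lower one. Averaged over both animals, which differed in direction, late minus early was 2.86 points, with a two-sided exact permutation p of 0.575 over 200 rearrangements (smallest possible 0.005).

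Counting the shared reads for Muc4 gave a log2 difference of 0.57 between late and early (SE 0.20, adjusted p = 0.128). Counting them for Muc20 gave 0.55 (SE 0.34, adjusted p = 0.312), so the direction for Muc20 turned round, and it did so too with either strand column (0.67 and 0.49). The libraries do not keep strand, with 50.0% to 50.2% of stranded reads in the first strand column, so the gene that made the shared reads cannot be told apart. The level and direction of Muc20 depend on that assignment and its late against early difference is not interpreted.

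**Figure D2:**
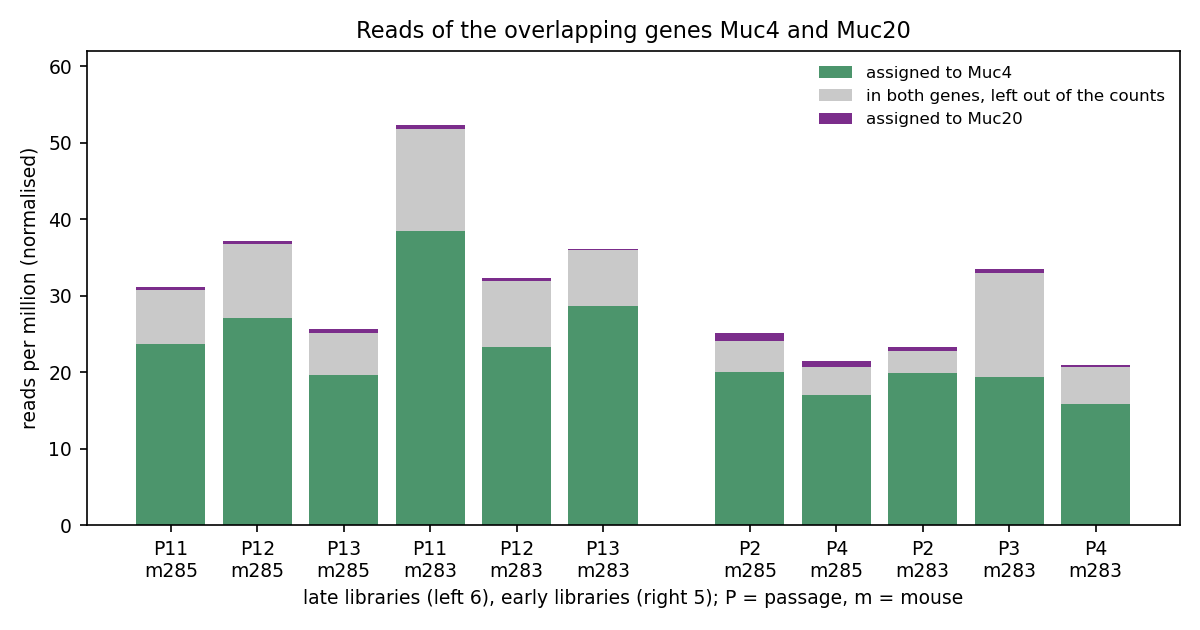
Stacked CPM of reads of the overlapping genes Muc4 and Muc20 in each library, late on the left and early on the right. Green is assigned to Muc4, grey falls in both genes and was left out of the counts, and purple is assigned to Muc20. The grey part exceeds the purple part in all 11 libraries.

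Between genes, levels were compared as CPM per kilobase of annotated exon (GENCODE M21, a later build than the counts). Muc13 was highest, with a median of 170 CPM per kilobase (range 95.7 to 229), followed by Muc3 with 23.5 (4.01 to 38.0), and these ranges did not overlap. Muc4 had 1.80 (1.43 to 3.46) and Muc20 0.146 (0.0457 to 0.317), without overlap when only assigned reads and unshared exon bases were used. Counting all shared reads for Muc20 gave it 3.42 to 14 CPM, against 0.155 to 1.08 CPM assigned. The level of Muc20 relative to Muc4 therefore depends on that assignment. Muc1 had 1.86 to 4.37 CPM per kilobase in the 3 early libraries of mouse_283, above Muc4 in each of them, and ranked below Muc4 in the other 8. There Muc1 and the assigned reads of Muc20 were both low, and Muc20 was the higher of them in 7 of 8 libraries. The annotated Muc3 model has only 1943 exon bases, and how its level per kilobase would change with a longer model was not tested. Muc13 made up 82.4% to 91.6% of the summed CPM of the members. The sum was 547 to 687 CPM in late libraries and 320 to 760 CPM in early libraries.

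Between the animals, mouse_285 against mouse_283 with stage in the model, none of the 5 members passed in edgeR's test as reported, where 11 genes (0.0776%) were called. Muc1 passed in the alternatives given above. The log2 difference was 0.00 for Muc3 (SE 0.42), -0.20 for Muc4 (SE 0.18), 0.04 for Muc13 (SE 0.22) and 0.75 for Muc20 (SE 0.36, adjusted p = 0.891). With the shared reads the Muc20 difference was -0.48. In mouse_285 alone edgeR called 0 genes between stages, with 762 at an unadjusted p under 0.05, while DESeq2 called 72.

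**Figure D3:**
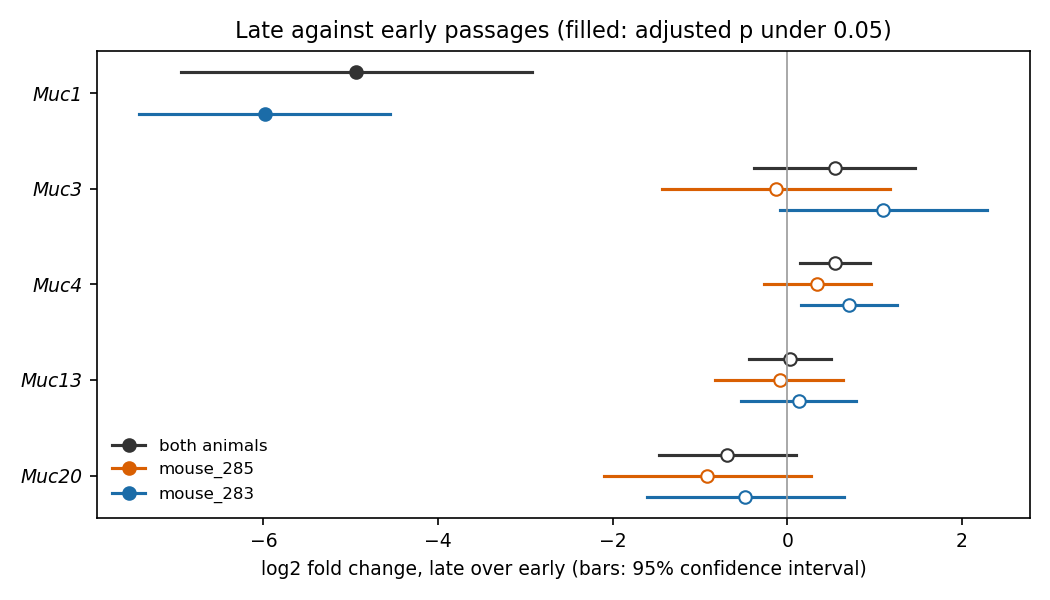
Log2 fold change of late over early (horizontal axis) for each member, for both animals together and within each animal, with 95% confidence intervals. Filled points have an adjusted p under 0.05. Muc1 in mouse_285 is left out because both stages were at or under 3 reads. Muc1 is at -4.94 for both animals and -5.98 in mouse_283, and all other intervals except those of Muc4 for both animals and in mouse_283 include 0.

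Among other membrane mucins, 5 of 10 listed genes were used and 3 of them were tested, while Muc3a, Muc12, Muc16, Muc17 and Muc21 were not analysed here. Mcam, an adhesion molecule also called Muc18, had 6.61 ± 1.97 CPM late (SD, n = 6) and 2.87 ± 0.906 CPM early (SD, n = 5) and rose by 1.23 (SE 0.25, adjusted p = 0.0221). The Mcam call was kept in 17 of 22 alternatives. The sialomucin Cd164 had 288 ± 18.1 CPM late and 217 ± 128 CPM early (log2 difference 0.40, adjusted p = 0.434). Parm1 had 50.1 ± 19.8 CPM late and 55.7 ± 16.2 CPM early (-0.16, adjusted p = 0.663). Muc15 and Emcn had no reads in any library. Of the secreted mucins 2 of 5 found were tested and neither passed. Muc2, the main gel-forming mucin of goblet cells, had 121 ± 28.4 CPM late (SD, n = 6) and 165 ± 98.2 CPM early (SD, n = 5), a log2 difference of -0.41 (SE 0.33, adjusted p = 0.43). Its highest value was 324 CPM at passage 3 of mouse_283 and its lowest 65.0 CPM at passage 4 of that animal. The summed CPM of the members were 1.40 to 5.61 times the CPM of the secreted mucin Muc2 in the same library, a ratio of read levels not corrected for length.

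Of the enzymes that build mucin O-glycans 2 rose and none fell, where 0.706% of all tested genes rose and 2.34% fell. None of 11 tested GalNAc transferases, which start the chains, passed (median log2 difference 0.18, against -0.02 over all tested genes). The smallest p were those of Galnt10, with 33.9 ± 4.55 CPM late and 51.4 ± 19.4 CPM early (adjusted p = 0.153), and Galnt6, with 153 ± 29.3 CPM late and 216 ± 66.1 CPM early (adjusted p = 0.167). Of 24 tested genes of chain extension and capping, 2 rose and 0 fell (median -0.02). Without passages 3 and 4 of mouse_283 the counts were 2 and 1, where 200 genes rose and 497 fell in all. Gcnt3, which makes the branched core structures of mucin glycans, had 84.1 ± 41.1 CPM late (SD, n = 6) and 26.1 ± 7.78 CPM early (SD, n = 5) and rose by 1.62 (SE 0.28, adjusted p = 0.0104). Fut2, the fucosyltransferase that adds terminal fucose to mucin glycans, had 8.05 ± 3.17 CPM late and 3.36 ± 0.861 CPM early and rose by 1.26 (SE 0.24, adjusted p = 0.017). The Gcnt3 call was kept in all 22 alternatives tried and the Fut2 call in 19.

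Several genes that organise the microvilli and their glycocalyx were lower in late libraries. Of 19 tested genes of microvillus anchors and glycocalyx, 5 fell and 0 rose (median -0.56), where 2.34% of all tested genes fell. The counts were 4 and 0 without passages 3 and 4 of mouse_283, where 497 genes fell in all, and 6 and 0 after the correction for GC content and length, where 567 fell in all. Pdzd3, a PDZ scaffold of the brush border, had 18.3 ± 2.73 CPM late (SD, n = 6) and 36.9 ± 9.49 CPM early (SD, n = 5) and fell by 1.04 (SE 0.19, adjusted p = 0.0119). Ceacam20, a brush border adhesion protein, fell by 1.23 (adjusted p = 0.0191). Cdhr2, a protocadherin that links microvilli, had 291 ± 80.6 CPM late and 530 ± 106 CPM early and fell by 0.84 (adjusted p = 0.0221). Espn, an actin bundler, fell by 0.95 (adjusted p = 0.0435), a call kept in 11 of 22 alternatives. The calls were kept in 21 of 22 for Pdzd3, 18 for Ceacam20 and 17 for Cdhr2. Ceacam1 (0.62), Anks4b (0.60), Eps8 (0.54), Cftr (0.45) and Pls1 (0.26) had log2 differences above 0 and did not pass. Markers of enterocytes, the cells that bear this brush border, also had a median below 0. Of these markers 6 of 14 fell and 0 rose (median -0.87), with a summed level of 3550 to 5750 CPM late and 5100 to 8050 CPM early. Fabp2 (0.19), Alpi (0.14) and Fabp1 (0.07) had log2 differences above 0 and did not pass. Anpep, an enterocyte aminopeptidase, had 687 ± 227 CPM late and 1610 ± 237 CPM early (fell by 1.27, adjusted p = 0.0176). Slc5a1, the glucose cotransporter, fell by 0.98 (adjusted p = 0.0144), and Apoa1, a lipoprotein component, by 1.48 (adjusted p = 0.0291). Lct, the lactase, fell by 3.09 (adjusted p = 0.0211). Its interaction of stage and animal was 3.52, a larger fitted fall in mouse_283, and did not pass (adjusted p = 0.137). These calls were kept in 20 of 22 alternatives for Anpep, 21 for Slc5a1, 18 for Lct and 15 for Apoa1. The part of these markers in the counts of microvillus genes was not tested.

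Of 6 tested galectins, lectins that can bind mucin glycans, 1 fell and 0 rose (median -0.30), where 2.34% of all tested genes fell. Lgals9 had 208 ± 24.6 CPM late (SD, n = 6) and 438 ± 124 CPM early (SD, n = 5) and fell by 1.04 (SE 0.17, adjusted p = 0.00807), a call kept in all 22 alternatives tried. Of 12 sheddases and membrane proteases 1 fell and 0 rose, with the same 2.34% over all genes (median -0.23). Mmp14, a membrane metalloprotease that sheds MUC1 in human cells, had 12.8 ± 3.05 CPM late and 28.9 ± 8.66 CPM early and fell by 1.17 (SE 0.24, adjusted p = 0.0221). The Mmp14 call was kept in 16 of 22 alternatives. Of 13 tested signalling partners 1 fell and 0 rose, again with 2.34% over all genes (median -0.19). That gene was Ereg, the EGF receptor ligand epiregulin, with 0.0179 ± 0.0286 CPM late and 0.674 ± 0.737 CPM early (fell by 4.53, SE 1.10, adjusted p = 0.045), a call kept in 8 of 20 alternatives.

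**Figure D4:**
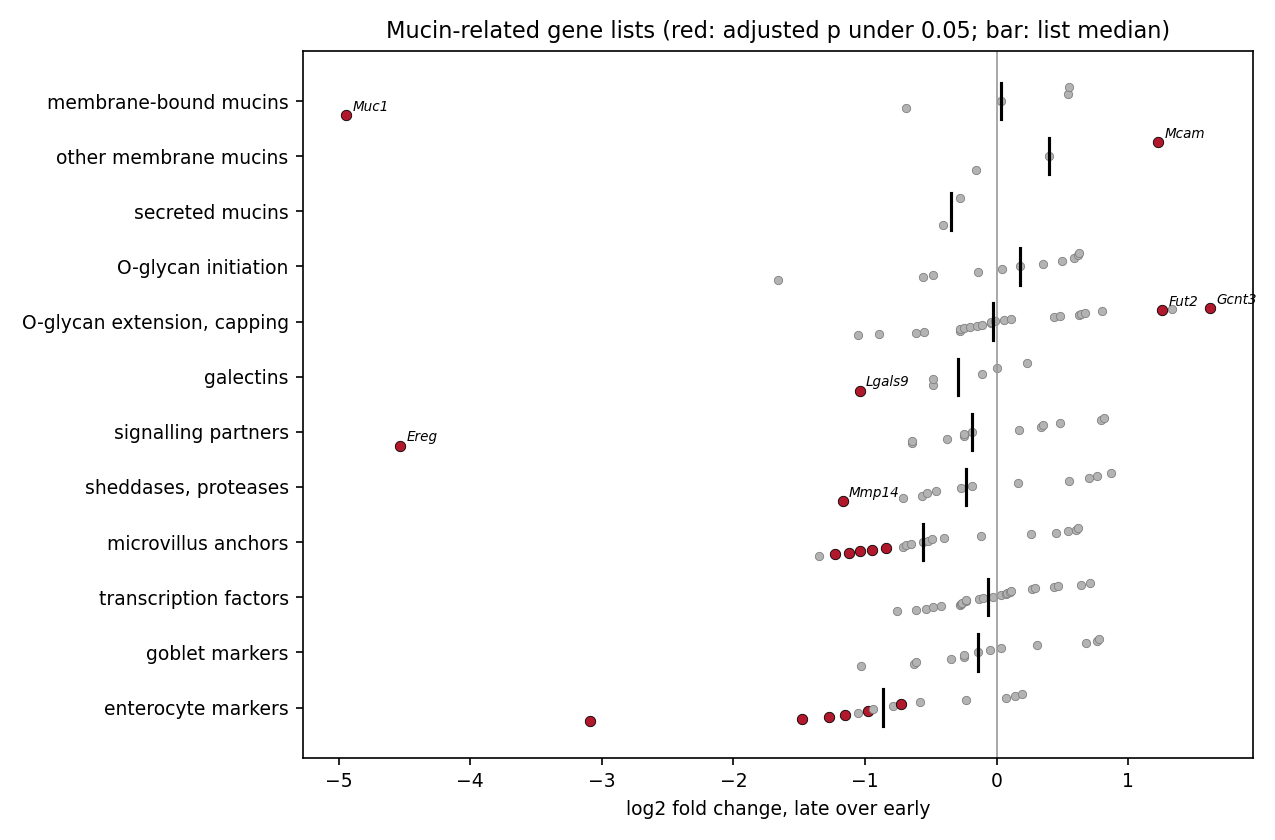
Log2 fold change of late over early (horizontal axis) for each tested gene of mucin-related lists (rows). Red points have an adjusted p under 0.05 and black bars are list medians. The enterocyte markers and the microvillus anchors have the lowest medians of the lists drawn, at -0.87 and -0.56.

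Of 24 tested transcription factors known to regulate mucin genes none passed (median -0.06), where 3.05% of all tested genes passed. Foxa1, a forkhead factor of endodermal tissues, had 56.7 ± 6.92 CPM late (SD, n = 6) and 36.4 ± 12.4 CPM early (SD, n = 5, adjusted p = 0.143). None of 13 tested goblet cell markers passed (median -0.14), with a summed level of 2940 to 5260 CPM late and 3620 to 8390 CPM early. Without passages 3 and 4 of mouse_283, 1 goblet marker rose, where 200 genes rose and 497 fell in all. Ccl9 had 6.63 ± 0.972 CPM late and 3.97 ± 0.881 CPM early (adjusted p = 0.0731), and Guca2a, the guanylin precursor, 61.6 ± 5.70 CPM late and 98.7 ± 42.9 CPM early (adjusted p = 0.127). None of 9 genes defining intestinal epithelium (median -0.10) and none of 8 stem and proliferation genes (median 0.60) passed. Without passages 3 and 4 of mouse_283, 2 of the 8 rose, with the same 200 genes rising in all. No gene of these lists passed between the animals.

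Markers of other tissues and cell types were also read. Gastric markers, of which 5 of 10 were tested and none passed (median -0.28), summed to 6.02 to 13.0 CPM in late and 10.3 to 21.7 CPM in early libraries, with Tff1 at 0 in every library and Muc5ac at most 0.0652 CPM. Colon markers summed to 51.9 to 82.1 CPM late and 24.8 to 88.9 CPM early, mostly from Slc26a3, an anion exchanger also known in small intestine, with 7.98 to 76.4 CPM per library, and Car1 was at 0 in every library. Of the 4 tested, the water channel Aqp8 fell by 4.03 (SE 0.76, adjusted p = 0.0146), with 0.0659 ± 0.0971 CPM late (SD, n = 6) and 0.904 ± 0.441 CPM early (SD, n = 5). Immune markers summed to 29.7 to 56.5 CPM late and 25.9 to 68.3 CPM early, mostly from Kit, with 15.0 to 58.0 CPM per library. The macrophage marker Cd68 had 2.45 ± 0.951 CPM late and 4.69 ± 2.17 CPM early (adjusted p = 0.151), and Itgam, named after its values were seen, had 3.40 to 13.5 CPM per library, while Cd3d, Cd4 and Cd8a were at 0. Stromal and endothelial markers summed to 1.04 to 2.93 CPM late and 2.53 to 5.23 CPM early, with Dcn, Lum and Kdr at 0. None of the tested immune (5) and stromal (2) markers passed. Their part in the Muc1 result was not tested.

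The genes most like each member were those with the highest Pearson correlation of log2 CPM over the 11 libraries among 9651 or 9652 genes. For Muc1 they were Vipas39 (0.88), the adenosine deaminase gene Ada (0.86) and the splicing factor gene Sf3b3 (0.85), and Sh3pxd2a (0.90), Ada (0.89) and Pigf (0.89) after the correction for GC content and length. Ada had 12.8 to 16.0 CPM late and 13.5 to 14.6 CPM early in mouse_285, and 14.1 to 19.3 CPM late and 23.1 to 41.5 CPM early in mouse_283, a far narrower range than Muc1. For Muc3 they were Tubal3 (0.94), Cdk11b (0.93) and Nop14 (0.91), for Muc13 they included Calu (0.92) and Ndufaf1 (0.91), for Muc4 they were Ybx3 (0.91), Arhgap10 (0.88) and Lmo4 (0.88), and for Muc20 Gtf2b (0.90), Ccl25 (0.87) and Slc22a13b-ps (0.85). After the correction the first ranks went to Mfn1 (0.96) for Muc3, Trim44 (0.94) for Muc13, Urah (0.95) for Muc4 and Ypel2 (0.90) for Muc20, and Ada was the only gene among the first 3 under both scales.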

How the data were processed

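RNA was sequenced from 11 organoid libraries. The authors deposited gene-level counts of reads, with an unstranded column and 2 strand columns. Trimming with Trimmomatic and alignment with STAR on mm9 are named in the submitters' processing notes; versions and the annotation release are not given in the sources used here. The unstranded column was used, since no strand column held 80% of stranded reads. Passage numbers in the table names were higher by 1 than in the titles, which were used. Of 37310 identifiers 32620 matched a symbol.

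Counts were filtered with filterByExpr, scaled by TMM and tested with edgeR 4.0.16 in R 4.3.3 (quasi-likelihood F test, two-sided, Benjamini-Hochberg, threshold 0.05), also with DESeq2 1.42.0 and limma 3.58.1. All 11 libraries entered each fit. The animal, which libraries share across stages, was a term (the replicate block) in late against early; groups of stage and animal gave the within-animal and interaction tests. The SE was the fold change divided by the square root of F. GC content and length came from GENCODE M21 on a later build for 13709 genes and were fitted with splines of 5 degrees of freedom. Log2 CPM used a prior count of 2, and genes of similar pattern had at least 5 CPM on average. The procedure was tested on simulated data. Late against early it recovered 25.9%, 87.3% and 100% of changes of 1, 2 and 3 log2 units, with 3 false calls of 131. For the interaction it recovered 1.37%, 21.3% and 60.9% of such changes, with 0 false calls of 53. Differences of 1 log2 unit were therefore mostly missed.

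The members and lists were chosen with earlier results of these data known. Named were all members, other mucins of at least 1 CPM, up to 4 genes per list past the threshold or otherwise the 2 of smallest p. Some genes that this rule names are not reported here. Contrasts of early libraries, shared reads and list counts under alternatives were added after the values were seen. Limits of 3 reads and exact intervals cover counting error alone, because PCR copies of a molecule are counted separately. Libraries were not duplicates (smallest chi-square per degree of freedom 14). Protein sequences were not used here.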

Additional observations from a re-analysis of the deposited data

How the results depend on the processing

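Directions and calls of the members were kept in 589 of 660 values under the alternatives, with 45 reversals. Without the replicate block (no animal term) Muc1 was -5.58 (adjusted p = 0.0266) and 400 genes were called late against early; between animals 2 were. Library totals alone moved the median of all genes late against early to 0.11, against -0.02, Muc13 to 0.14 and Muc4 to 0.68. Late against early calls, 432 as reported, were 1819 with no low-count filter (1053 higher, 766 lower), 280 with at least 10 reads in every library, where Muc1 was not tested, 1343 with DESeq2 (495 higher, 848 lower), 697 without passages 3 and 4 of mouse_283 and 988 after the GC and length correction. Leaving out 1 library gave 173 (without passage 4 of mouse_285) to 4872 (without passage 2 of mouse_283), -5.55 to -4.42 for Muc1, 0.24 to 1.02 for Muc3, 0.42 to 0.63 for Muc4, -0.11 to 0.20 for Muc13 and -0.86 to -0.54 for Muc20. Muc4 passed with DESeq2 (0.55), and Muc13 reversed without passages 3 and 4 of mouse_283 (-0.21). Calls between animals, 11 as reported, were 4 with library totals alone, 207 with no filter, 5 with 10 reads in every library, 126 with DESeq2, 7 with limma-voom, 6 with the first strand column, 107 without passages 3 and 4 of mouse_283, 39 after the correction and 3 to 74 without 1 library. In the same order, where they moved, interaction calls, 0 as reported, were 65 with no filter, 16 with DESeq2, 1 with the first strand column, 5 without these passages, 1 after the correction and 0 to 2314 without 1 library (the highest without passage 2 of mouse_283). Calls within mouse_283, 201 as reported, were 132 with library totals, 1446 with no filter, 86 with 10 reads, 736 with DESeq2, 932 without these passages, 600 after the correction and 36 to 7694 without 1 library. Calls within mouse_285, 0 as reported, were 114 with no filter, 72 with DESeq2, 3 with the first strand column, 317 without these passages, 31 after the correction and 0 to 58 without 1 library. Slope calls were 0 under every alternative tried. Between early libraries, 2 as reported, they were 0 with library totals, 10 reads or either strand column, 78 with no filter, 29 with DESeq2, 129 without these passages, 4 after the correction and 0 to 4632 without 1 library.

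Muc20 reversed with the first strand column, the second strand column and the shared reads: 0.67, 0.49 and 0.55 late against early, 0.94, 0.54 and 0.72 within mouse_285, 0.47, 0.46 and 0.42 within mouse_283, -0.46, -0.47 and -0.48 between animals, and 0.47, 0.08 and 0.30 for the interaction. The cause is that these columns hold reads shared with Muc4. Between animals Muc3, at 0.00 as reported, was 0.13 with library totals alone, 0.01 with 10 reads in every library, 0.04 with limma-voom and with the first strand column, 0.02 after the correction and -0.48 to 0.15 without 1 library. Without passages 3 and 4 of mouse_283 Muc13 was -0.15 between animals, 0.31 for the interaction and -0.40 within mouse_283. Without 1 library Muc13 ran from -0.11 to 0.18 between animals, -0.60 to 0.14 for the interaction, -0.13 to 0.50 within mouse_283 and -0.39 to 0.28 within mouse_285. Muc3 within mouse_285 was 0.07 with limma-voom and -0.71 to 0.85 without 1 library. Muc1 within mouse_285, where counts of 0 to 2 reads carry no fold, was fitted at -2.44 with the second strand column and -0.09 to 3.30 without 1 library, and its passage slope ran from -0.82 to 0.11. For the other reversals the cause was not tested. At these depths Muc1 outside the early libraries of mouse_283 was at or below the limit of 3 reads. Muc20 had few assigned reads, 3 to 19 per library, and its level also depended on the reads shared with Muc4.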

Other observations

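Of 37310 genes, 3 had at least 1 CPM in each early library of mouse_283 and at most 10% of the lowest of these values in each of the other 8 libraries, by a cut-off chosen after the Muc1 values were seen. Besides Muc1 they were Lcn2, encoding the iron-siderophore binding protein lipocalin 2, and Gabrp, encoding a GABA-A receptor subunit. Lcn2 had 2.50, 2.48 and 2.71 CPM at passages 2, 3 and 4 of mouse_283 and at most 0.187 CPM elsewhere. Gabrp had 11.6, 1.46 and 1.44 CPM there and was at 0 in the other 8 libraries. These genes were chosen for the pattern, so no test is given.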
